A study of Mus musculus with 76 samples.

Results

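Embryos whose mother and father had both been given α-cypermethrin before mating, at the dose labelled 10, were compared with embryos of vehicle-treated pairs. The libraries were taken by their titles, 10 named Both_10Cyp and 12 named Ctrl, and make up 22 of the 76 libraries of the series. The mice were C57Bl/6J, and total RNA came from the dorsal part of the forebrain of each embryo, collected on embryonic day 16 when the pregnant females were killed. Ctrl parents had received vehicle only, and Both_10Cyp parents the insecticide, over 28 days: 7 days of dosing and then 3 cycles of 2 days off and 5 days on. No unit is labelled for the dose, and no transgene or deletion is labelled in any group. Ctrl had 6 libraries in batch 1 (3 female, 3 male) and 6 in batch 2 (2 female, 4 male). Both_10Cyp had 4 in batch 1 (2 female, 2 male) and 6 in batch 2 (2 female, 4 male). The labels do not say what a batch is, and they name no litter or parent. The p-values thus measure the spread between libraries only, some of which may be littermates. That spread was estimated over all 76 libraries of the series, not over these 22 alone. The comparison asks which genes of the embryonic cortex differ when both parents were exposed before conception.

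α-Cypermethrin is a pyrethroid, an insecticide class that acts on voltage-gated sodium channels and keeps them open. The embryos themselves were conceived after dosing had ended. At this age the dorsal forebrain holds dividing radial glia and intermediate progenitors near the ventricle and, above them, young excitatory neurons that switch on channels, receptors and synaptic proteins as they mature. Ribosomal and respiratory chain genes are active in every one of these cells, and many of them make very short transcripts.

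The tissue label was checked on 12 genes of dorsal forebrain identity, all of which were detected. Tbr1, a factor of deep-layer cortical neurons, ranged over 269 to 426 (median 352) CPM (counts scaled to a common library total and for library composition) in Ctrl and 318 to 427 (median 343) in Both_10Cyp. Emx1, a factor of the dorsal forebrain, ranged over 27.1 to 73.9 (median 52) and 45.3 to 98.4 (median 55.1) CPM. The groups overlapped in both genes. Other tissue was present as well. Ttr, the defining gene of choroid plexus, ranged over 13.4 to 855 (median 473) CPM in Ctrl and 389 to 1012 (median 646) in Both_10Cyp. The microglial marker Aif1 stayed at or below 1.28 CPM in both groups. Csf1r, also a microglial marker, was higher, at 14.4 to 23.9 CPM in Ctrl and 13.4 to 26.6 in Both_10Cyp. In bulk tissue, fewer cells of a type and less RNA per cell cannot be told apart.

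Depth and group went together. Ctrl libraries held 17.9 to 19.9 M (mega) counts and Both_10Cyp libraries 21.2 to 34 M, with no overlap, so depth and exposure cannot be told apart within these 22 libraries. Both_10Cyp replicates 7 and 8, both of batch 2, stood apart from the rest of their group. Their summed level of the 41 mitosis and kinetochore genes was 2327 and 2247 CPM, the other 8 lay at or below 1682, and Ctrl ranged over 901 to 1881 (median 1119.9). The embryonic globin Hbb-y, a marker of primitive red blood cells, was at 9.34 and 8.72 CPM in them, against at most 0.57 in the other 8 and 0 to 0.967 (median 0.104) in Ctrl.

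With all 22 libraries, 335 genes were higher and 226 lower in Both_10Cyp (adjusted p under 0.05, which is what called means throughout), which is 3.91% of the 14339 genes tested (2.34% higher, 1.58% lower). The differences were small: the called genes had a median absolute log2 fold change of 0.26, and 57 reached 0.5. Without replicates 7 and 8, 10 genes were called (0.0697%), all of them higher and all among the 561, and 1341 genes had an unadjusted p under 0.05. The 10 were Rps29, Rps28, Rps21, Rpl38, Atp5k, mt-Nd4l, mt-Atp8, Snrpf, Pdap1 and Gm20390, and every other call against Ctrl described here over both batches was lost without those 2 libraries. The median of the 335 was 0.28 with these libraries and 0.20 without them, and that of the 226 was -0.25 and -0.18. Single libraries of either group moved the count as well. Leaving out 1 library at a time moved it by over 1.5 times in 15 of 22 cases. It was 27 without Both_10Cyp replicate 8, 35 without replicate 7 and 247 without replicate 2, and 81, 110, 151, 186, 251 and 370 without Ctrl replicates 7, 8, 12, 3, 9 and 10. It was 1391, 1110, 973 and 906 without Both_10Cyp replicates 3, 4, 10 and 6, and 1627 and 990 without Ctrl replicates 6 and 5.

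**Figure D1:**
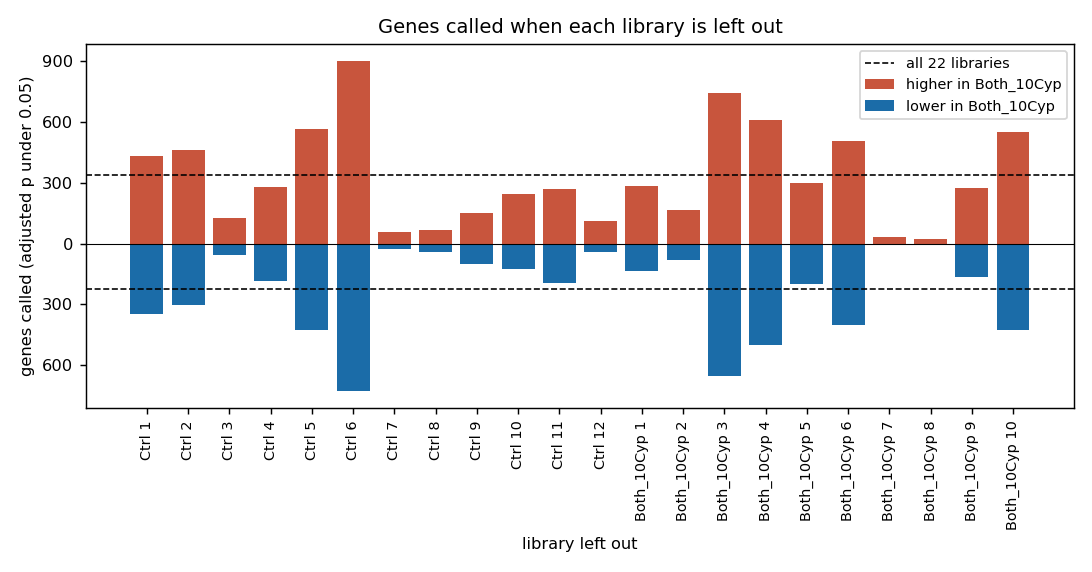
Number of genes called higher (upward bars) and lower (downward bars) in Both_10Cyp when each of the 22 libraries was left out in turn, with dashed lines at the 335 and 226 genes of the fit on all of them. The count was lowest without Both_10Cyp replicate 8 (24 higher, 3 lower) and highest without Ctrl replicate 6 (901 higher, 726 lower).

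A set of 8 genes was called in 39 of the 40 fits of this comparison, the exception being batch 1 alone, in which no gene was called. They were Rps29, Rps28, Rps21 and Rpl38 of the cytosolic ribosome, Atp5k of ATP synthase, the spliceosomal protein Snrpf, Pdap1 and the predicted gene Gm20390. Transcripts of Snrpf, Pdap1 and Gm20390 are longer than 400 nucleotides (nt), those of the other 5 shorter. Gm20390, named after its values were seen, lies at chromosome 11, 93949819 to 93968293, over Nme1 and Nme2.

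Rps29 (ENSMUSG00000034892; chromosome 12, 69157722 to 69159186), a protein of the small ribosomal subunit, ranged over 65.2 to 116 (median 97.5) CPM in Ctrl and 112 to 179 (median 156) in Both_10Cyp. All but 1 exposed library lay above every Ctrl library. The log2 fold change was 0.71 ± 0.11 (SE, adjusted p = 0.000123), or 0.60 in batch 1 and 0.78 in batch 2, and 0.67 without replicates 7 and 8 (adjusted p = 0.00292). Snrpf (ENSMUSG00000020018; chromosome 10, 93583029 to 93589706), a ring subunit of the spliceosomal small nuclear ribonucleoproteins, ranged over 20.9 to 40.3 (median 29.3) CPM in Ctrl and 33.7 to 54.3 (median 43) in Both_10Cyp. The exposed libraries overlapped only the upper part of the Ctrl range, 7 of 10 being above all of it. Its log2 fold change was 0.59 ± 0.10 (adjusted p = 0.000445) and 0.48 without the 2 libraries (adjusted p = 0.0238). Pdap1, an abundant phosphoprotein first described as binding platelet-derived growth factor, had a small difference. It ranged over 134 to 177 (median 156) CPM in Ctrl and 169 to 200.4 (median 182) in Both_10Cyp, a log2 fold change of 0.25 ± 0.04 (adjusted p = 0.000417), or 0.15 in batch 1 and 0.33 in batch 2. Gm20390 ranged over 29.4 to 58.8 (median 47.5) CPM in Ctrl and 59 to 81.1 (median 70.2) in Both_10Cyp, with no overlap, at a log2 fold change of 0.69 ± 0.11 (adjusted p = 0.000119). Its neighbours on the same strand, the nucleoside diphosphate kinases Nme1 and Nme2, had log2 fold changes of 0.08 ± 0.08 and 0.10 ± 0.06 and were not called, and how the authors' counting divided reads among these 3 overlapping models is not known.

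**Figure D2:**
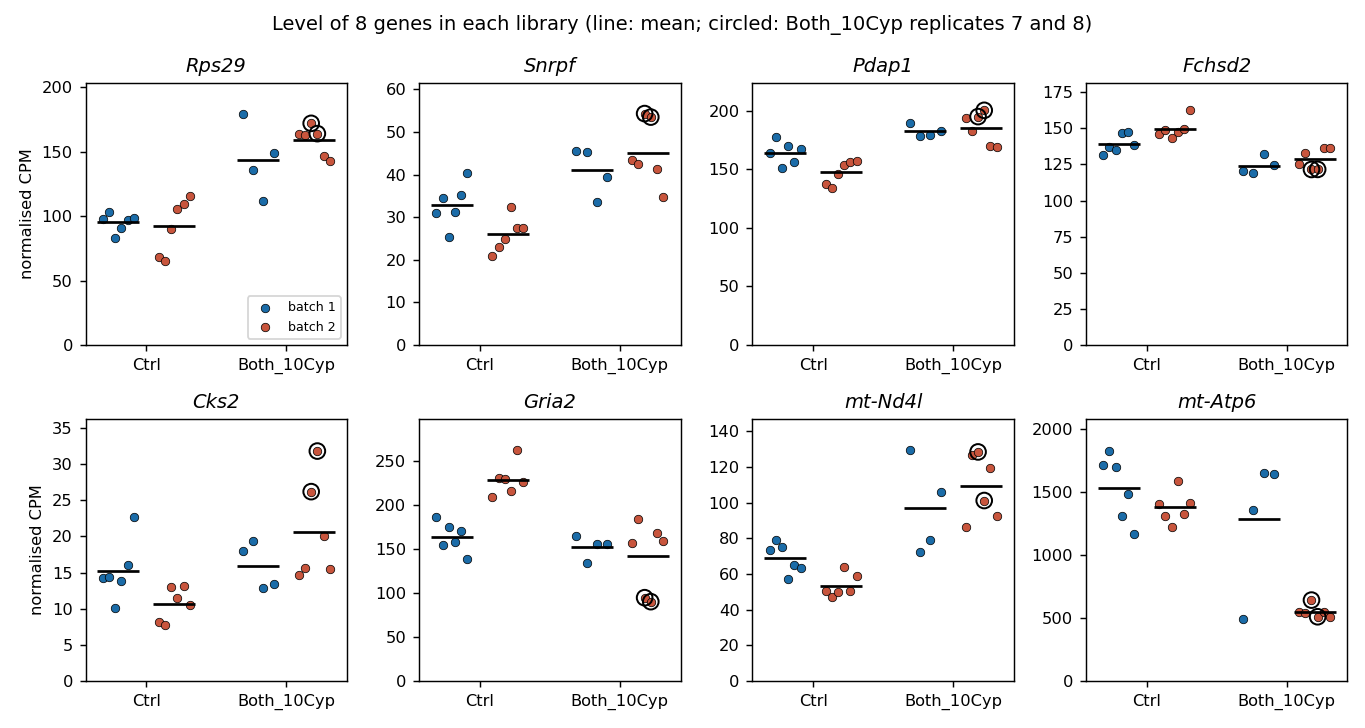
Normalised CPM (vertical axis, from 0) of 8 genes in each Ctrl and Both_10Cyp library, coloured by batch, with a line at the mean of each group and batch and circles around Both_10Cyp replicates 7 and 8. Rps29, Snrpf and Pdap1 are higher in Both_10Cyp in both batches, Cks2 and Gria2 have their extremes in the circled libraries, and mt-Atp6 falls into a high and a low set within Both_10Cyp.

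The difference from Ctrl followed transcript length over the whole table. The 25 genes with transcripts under 400 nt had a median log2 fold change of 0.36, the 173 genes of 400 to 600 nt 0.22, and the 2108 genes of 5000 nt or more -0.09. The median over all genes tested was 0.00. Both batches showed this order, with 0.28 and 0.43 for the shortest class and -0.06 and -0.13 for the longest in batches 1 and 2, and it remained without replicates 7 and 8 (0.34 and -0.08). Genes called higher had a median length of 1312 nt and genes called lower 3661 nt, against 2788 nt for all genes tested. With offsets for GC content and length, which remove any such trend by construction, 100 genes were called higher and 116 lower (1.51% of 14327, made up of 0.698% and 0.81%), and 156 of these 216 were among the 561. The 8 genes named above were called with the offsets by their selection, since this fit is among those that define the set. With the offsets Rps29 had a log2 fold change of 0.42 and Snrpf 0.43.

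**Figure D3:**
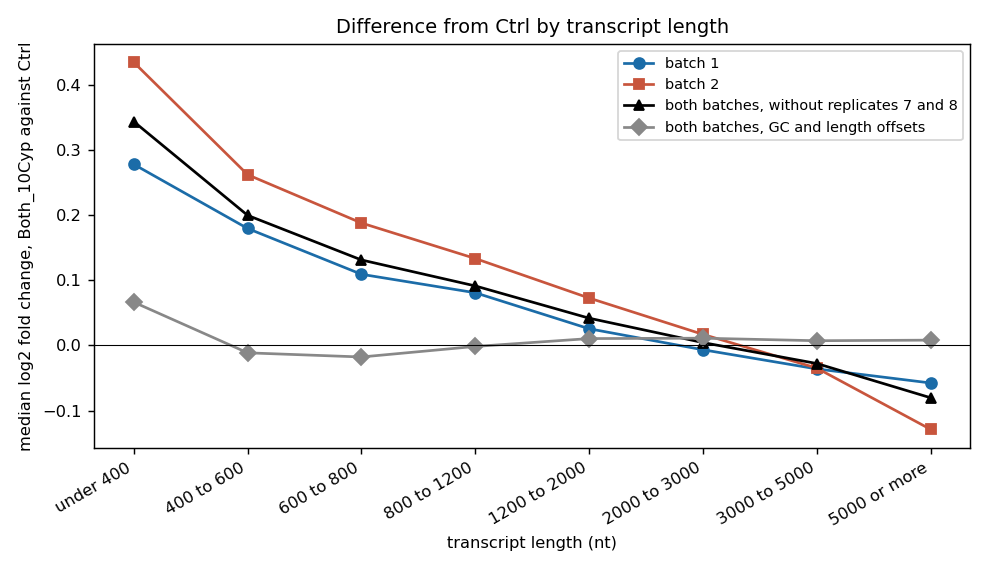
Median log2 fold change of Both_10Cyp against Ctrl (vertical axis) for genes grouped by transcript length in nt (horizontal axis), in batch 1, in batch 2, over both without replicates 7 and 8, and over both with GC and length offsets. The first 3 lines fall from the shortest to the longest class, and with the offsets the classes lie between -0.02 and 0.07.

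Whether the deeper libraries of other groups shared the shift in short transcripts was looked at per library. For the 198 genes under 600 nt, the median log2 deviation from each gene's mean over all 76 libraries ran from -0.36 to 0.03 in Ctrl and from -0.10 to 0.13 in Both_10Cyp. The 2 groups overlapped between -0.10 and 0.03. In the 7 libraries of other groups above 20 M counts it ran from -0.25 to 0.14, and in the 47 shallower ones from -0.19 to 0.89 (median 0.03). The 3 lowest values of the 76 belonged to Ctrl replicates 7, 8 and 9 of batch 2, and the deeper libraries of other groups lay on both sides of 0. Of these deeper libraries, those below 0 were of batch 2 and those above 0 of batch 1. Thinning every library to the depth of the shallowest left Rps29 at 0.72 and 528 genes called. Thinning evens out the number of counts only, and the part of depth in the shift was not tested.

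**Figure D4:**
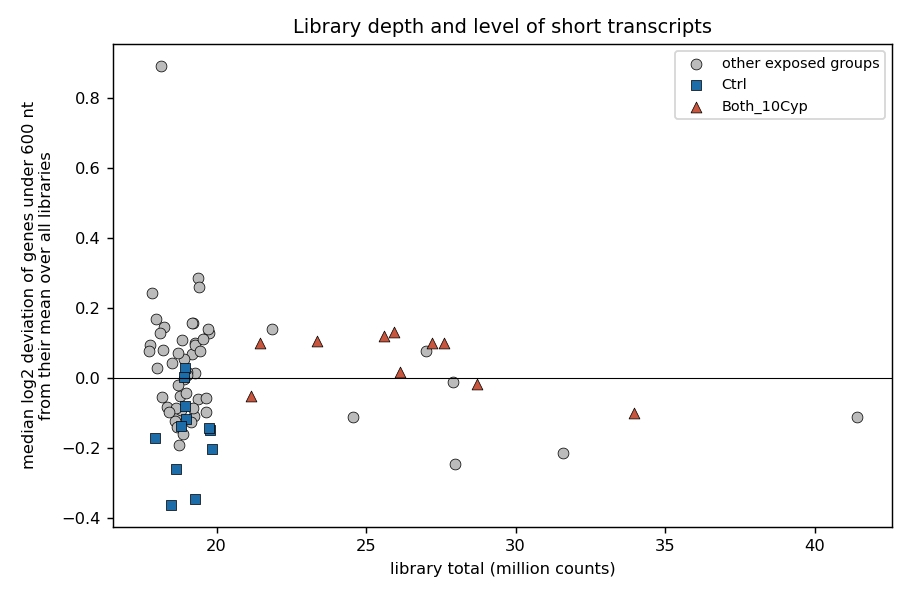
Median log2 deviation of the 198 genes under 600 nt from their mean over all libraries (vertical axis) against library total in M counts (horizontal axis), for the 76 libraries. Ctrl libraries (squares) lie at the left and mostly below 0, Both_10Cyp libraries (triangles) at 21.2 to 34.0 M counts and mostly above 0, and the 7 deep libraries of other groups at -0.25 to 0.14.

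All ribosomal protein genes that were called were higher in Both_10Cyp. Of 82 cytosolic ribosomal proteins tested, 19 were called higher and none lower, and their median log2 fold change was 0.20 (0.14 in batch 1 and 0.26 in batch 2). Of the 65 under 1000 nt 18 were called higher and of the 17 longer ones 1, against 2.34% of all genes tested. The 2 subunits had medians of 0.20 for 33 small-subunit and 0.20 for 49 large-subunit genes. Without replicates 7 and 8 the median was 0.16 with 4 called, and with the offsets 0.04 with 8 called. The 4 members of lowest p, Rps29 among them, had transcripts under 400 nt. Rpl38 (ENSMUSG00000057322; chromosome 11, 114668524 to 114672331), of the large subunit, ranged over 56.6 to 99.1 (median 81.6) CPM in Ctrl and 93.5 to 156 (median 133) in Both_10Cyp, a log2 fold change of 0.68 ± 0.12 (adjusted p = 0.000445). Rps28 and Rps21, of the small subunit, had log2 fold changes of 0.66 ± 0.12 and 0.63 ± 0.11, each with 9 of 10 exposed libraries above all Ctrl libraries. Rpl37 (835 nt) ranged over 105 to 171 (median 156) CPM in Ctrl and 159 to 232 (median 206) in Both_10Cyp (0.51 ± 0.10, adjusted p = 0.00261), and without replicates 7 and 8 it missed the threshold (0.45, adjusted p = 0.0615). Ribosomal protein genes have many processed pseudogenes, so a part of their estimated counts may have been assigned between copies.

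The mitochondrial ribosome, which translates the respiratory chain subunits encoded by mitochondrial DNA, showed the same direction. Of its 78 genes, 12 were called higher and none lower, at a median of 0.15, and none was called without replicates 7 and 8 (median 0.12). With the offsets 1 was called, at a median of 0.06. Of the 30 members under 1000 nt 7 were called higher and of the 48 longer ones 5, against 2.34% of all genes tested. Mrpl46 ranged over 12.6 to 19.2 (median 15.7) CPM in Ctrl and 17 to 23 (median 19.2) in Both_10Cyp (0.30 ± 0.08, adjusted p = 0.0247). Mrpl54 and Mrpl52 had log2 fold changes of 0.36 ± 0.08 and 0.38 ± 0.10.

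Nuclear genes of oxidative phosphorylation were called in 1 direction too. Of 37 genes of complex I, the entry point for NADH electrons, 8 were called higher, of 25 genes of complexes II to IV 5, and of 17 genes of ATP synthase 4, with none lower in any of the 3 lists. All 79 together had a positive log2 fold change, with a median of 0.18 and 17 called. Of the 51 members under 1000 nt 16 were called higher, and of the 28 longer ones 1. Over all genes tested, 2.34% were called higher, and of those under 1000 nt 124 of 1042. The median of the 79 was 0.17 without replicates 7 and 8, where Atp5k alone was called. It was 0.03 with the offsets, where 4 were called and 21 of 79 lay below 0. Atp5k (ENSMUSG00000050856; chromosome 5, 108433244 to 108434448), subunit e of ATP synthase, ranged over 12.2 to 21.2 (median 15.9) CPM in Ctrl and 19.6 to 29.7 (median 26.4) in Both_10Cyp. Of the exposed libraries, 9 lay above the highest Ctrl library, and the log2 fold change was 0.69 ± 0.12 (adjusted p = 0.000445). Uqcr11 of complex III had 0.41 ± 0.09, Ndufa6 of complex I 0.36 ± 0.08 and Cox7b of complex IV 0.33 ± 0.08. Of these 3, Ndufa6 was not called with the offsets (0.06, adjusted p = 0.424). Tomm7, a small part of the channel that imports proteins into mitochondria, ranged over 17 to 30.2 (median 23.8) CPM in Ctrl and 26.2 to 40.7 (median 34.1) in Both_10Cyp (0.54 ± 0.10, adjusted p = 0.00206), and missed the threshold without replicates 7 and 8 (0.47, adjusted p = 0.0615).

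The 13 mRNAs made inside mitochondria did not move together, with 2 called higher and 1 lower. The called genes each share bases with a neighbour on the mitochondrial chromosome. The overlap of mt-Atp8 (204 nt, chrM:7766-7969) with mt-Atp6 (7927 to 8607) is 43 bases. That of mt-Nd4l (297 nt, chrM:9877-10173) with mt-Nd4 (10167 to 11544), which was not called, is 7. The transcripts of mt-Atp8 and mt-Nd4l are shown 5′ to 3′ from GENCODE M21 (GRCm38, plus strand), with the bases shared with the next gene in capitals. Reads over those bases fit both genes, and their part in these differences was not tested.
mt-Atp8: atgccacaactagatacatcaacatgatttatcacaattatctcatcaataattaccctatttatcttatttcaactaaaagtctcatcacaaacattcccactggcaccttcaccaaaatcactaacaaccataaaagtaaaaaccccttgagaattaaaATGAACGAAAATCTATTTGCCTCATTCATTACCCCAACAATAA
mt-Nd4l: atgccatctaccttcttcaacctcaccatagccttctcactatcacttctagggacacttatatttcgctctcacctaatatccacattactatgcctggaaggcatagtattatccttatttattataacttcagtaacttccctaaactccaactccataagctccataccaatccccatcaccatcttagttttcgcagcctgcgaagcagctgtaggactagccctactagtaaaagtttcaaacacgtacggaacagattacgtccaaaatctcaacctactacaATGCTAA

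mt-Nd4l, a core membrane subunit of complex I, ranged over 47.3 to 78.8 (median 61) CPM in Ctrl and 72.6 to 129.7 (median 104) in Both_10Cyp. All but 1 exposed library exceeded every Ctrl library, and the log2 fold change was 0.81 ± 0.14 (adjusted p = 0.000417), or 0.49 in batch 1 and 1.03 in batch 2. mt-Atp8, a membrane subunit of ATP synthase, ranged over 15.7 to 23.8 (median 18.5) and 21.1 to 35 (median 26.9) CPM (0.55 ± 0.10, adjusted p = 0.00105). Without replicates 7 and 8 both were still called, at 0.75 and 0.56, and with the offsets neither was, at 0.41 and 0.12 (adjusted p = 0.0937 and 0.573). mt-Atp6, the proton channel subunit of ATP synthase, split the exposed group in 2. It was at 1354, 1652 and 1642 CPM in replicates 2 to 4 and between 489 and 642 in the other 7, while Ctrl ranged over 1164 to 1827 (median 1411). All 6 exposed libraries of batch 2 were in the low set, and the log2 fold change was -0.81 ± 0.22 (adjusted p = 0.0308), or -0.71 without replicates 7 and 8 (adjusted p = 0.343). The ratio of mt-Atp6 to mt-Nd4l was below 8 in 7 Both_10Cyp libraries, in no Ctrl library and in 6 libraries of other groups, so the low set was not particular to Both_10Cyp. None of the other 10 mitochondrial mRNAs was called: mt-Co1, the catalytic subunit of complex IV, had -0.01 ± 0.06, mt-Cytb of complex III 0.06 ± 0.06 and mt-Co2 -0.20 ± 0.11.

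Among genes of RNA and protein turnover were those of the Sm and Lsm proteins, which form rings around spliceosomal RNAs. Of these 20 genes 8 were called higher and none lower, against 2.34% called higher of all genes tested. The median was 0.22 (0.13 in batch 1, 0.30 in batch 2). Of the 10 members under 1000 nt 5 were called higher and of the 10 longer ones 3. With the offsets for GC content and length 3 were called higher, at a median of 0.11. Beside Snrpf, Snrpe (0.36 ± 0.09), Snrpg (0.38 ± 0.10) and Lsm5 (0.50 ± 0.13) were called, and without replicates 7 and 8 Snrpf alone. Of 31 proteasome genes none was called at a median of 0.14, and 14 were called higher in batch 2 (where 10.9% of all genes were), none of them without replicates 7 and 8. Anapc13, a subunit of the ubiquitin ligase that drives exit from mitosis, ranged over 11.5 to 19.8 (median 15.5) CPM in Ctrl and 18.8 to 28.9 (median 23.5) in Both_10Cyp (0.56 ± 0.11, adjusted p = 0.00289). Nudt21, a part of the machinery that chooses the cleavage site of mRNA 3′ ends, and Snapc5, a part of the complex that starts small nuclear RNA genes, had 0.18 ± 0.04 and 0.44 ± 0.09. Szrd1, a little-studied gene with a 3244 nt transcript, had 0.21 ± 0.04. None of these 4 was called without replicates 7 and 8 (adjusted p = 0.108, 0.195, 0.0842 and 0.147).

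The promoters of genes called higher were searched for CCGGAAG on either strand, a sequence built on the GGAA core that ETS-family factors recognise and that is frequent at housekeeping genes. Windows of 300 bases, 250 before and 50 after the start, were taken from RefSeq (GRCm38.p6). It was present for 92 of 275 genes called higher with a promoter (33.5%), 20 of 175 called lower (11.4%), 2048 of 11170 tested (18.3%) and 2910 of all 32851 windows (8.86%). Transcript length went with it: among genes under 1000 nt, it was present for 36 of 95 called higher (37.9%) and 159 of 707 not called (22.5%). A match is a match of letters and no evidence of binding. The windows below were picked for holding a match, and whether the other genes called in nearly every fit hold one is not reported here. Rps21 has 2 windows, of which 1 is shown. The windows of 3 of the 8 genes called in nearly every fit are shown, with matches in capitals, because each holds at least 1: Rps21 (chr2:180257129-180257428, plus strand) holds 2, Rpl38 (chr11:114668330-114668629, plus strand) 1 and Atp5k (chr5:108434350-108434649, minus strand) 1, on the opposite strand as CTTCCGG.
Rps21: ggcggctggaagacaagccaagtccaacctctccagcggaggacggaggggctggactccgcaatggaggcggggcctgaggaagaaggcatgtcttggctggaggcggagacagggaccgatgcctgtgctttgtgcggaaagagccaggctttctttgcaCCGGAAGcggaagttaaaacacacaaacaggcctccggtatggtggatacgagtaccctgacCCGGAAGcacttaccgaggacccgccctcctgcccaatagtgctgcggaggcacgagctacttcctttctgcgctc
Rpl38: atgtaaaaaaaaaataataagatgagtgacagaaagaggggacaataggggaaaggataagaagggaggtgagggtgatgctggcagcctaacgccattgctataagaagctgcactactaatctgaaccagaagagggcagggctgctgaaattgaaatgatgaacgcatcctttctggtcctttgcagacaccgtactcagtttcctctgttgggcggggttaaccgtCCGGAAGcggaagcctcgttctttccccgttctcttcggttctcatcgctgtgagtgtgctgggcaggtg
Atp5k: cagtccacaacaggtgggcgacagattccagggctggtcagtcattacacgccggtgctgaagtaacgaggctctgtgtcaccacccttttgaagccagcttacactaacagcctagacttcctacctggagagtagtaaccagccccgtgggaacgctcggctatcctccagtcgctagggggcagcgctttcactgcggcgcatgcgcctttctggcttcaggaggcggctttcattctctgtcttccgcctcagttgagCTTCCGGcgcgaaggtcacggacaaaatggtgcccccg

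Cell division genes passed the test in batch 2 and not in batch 1, and the difference between the batches passed it for none of them in edgeR. Of 41 mitosis and kinetochore genes, 8 were called higher and none lower, with a median of 0.35, but the batches gave -0.05 (none called) and 0.66 (38 called). Of 41 DNA replication genes 4 were called higher, with medians of -0.04 and 0.47 (33 called) in batches 1 and 2. Over all genes tested, 2.34% were called higher over both batches and 10.9% within batch 2. Without replicates 7 and 8 no gene of either list was called, and the medians were 0.15 and 0.12. Cks2, which binds cyclin-dependent kinases, ranged over 7.75 to 22.7 (median 13) CPM in Ctrl and 12.9 to 31.8 (median 16.8) in Both_10Cyp, with replicates 7 and 8 at 26.2 and 31.8. Those 2 were the only exposed libraries above the highest Ctrl library, and its log2 fold change went from 0.55 ± 0.14 (adjusted p = 0.0229) to 0.33 without them (adjusted p = 0.459). Dscc1, of the clamp loader that couples replication to cohesion, and Cenpw, a centromere protein, had 0.60 ± 0.16 and 0.45 ± 0.12. The embryonic globins were high in the same 2 libraries, and their part in these results was not tested.

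Progenitor genes gave calls in both directions. Of 18 genes of intermediate progenitors and their proneural factors, 3 were called higher: Neurod4 (0.57 ± 0.15), Gadd45g (0.48 ± 0.14) and Rhbdl3 (0.59 ± 0.17). The list had a median of 0.03 in batch 1 and 0.50 in batch 2, and none was called without replicates 7 and 8 (median 0.14). Hmga2, a chromatin protein of early neural progenitors, ranged over 0.671 to 3.87 (median 1.29) CPM in Ctrl and 1.05 to 8.92 (median 2.53) in Both_10Cyp, with replicates 7 and 8 at 8.92 and 7.63. Its log2 fold change was 1.05 ± 0.31 with them and 0.39 without them (adjusted p = 0.628). Emx2, a patterning factor of the cortical primordium, was called higher (0.37 ± 0.11), and Ptprz1 and Tnc, surface and matrix proteins of radial glia, were called lower (-0.36 ± 0.11 and -0.50 ± 0.15). None of these 3 was called without replicates 7 and 8 (adjusted p = 0.549, 0.462 and 0.507). Of the 21 radial glia genes tested, 1 was called higher, 2 were called lower and 18 were not called. Over all genes tested, 2.34% were called higher and 1.58% lower. None of the 30 upper-layer and deep-layer neuron genes was called, at medians of -0.03 and -0.06.

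**Figure D5:**
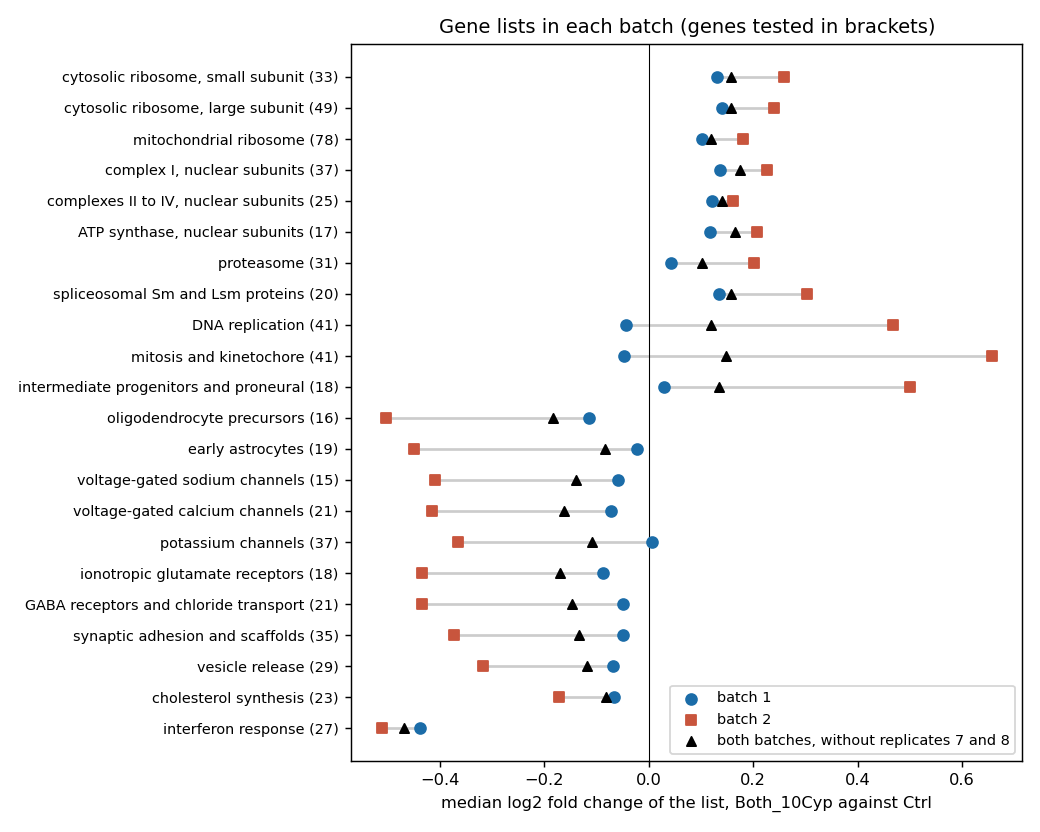
Median log2 fold change of Both_10Cyp against Ctrl (horizontal axis) for 22 gene lists, in batch 1 (circles), in batch 2 (squares) and over both batches without replicates 7 and 8 (triangles). Ribosomal and respiratory chain lists lie above 0 in all 3, and DNA replication and mitosis lie above 0 in batch 2 and slightly below 0 in batch 1. The channel, receptor and synapse lists lie below 0 in batch 2 and nearer to 0 in batch 1, where potassium channels have a median of 0.005.

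None of the voltage-gated sodium channel genes, which encode the target of pyrethroids, was called. Of 18 listed, 15 were tested, and their median log2 fold change was -0.23 (-0.06 in batch 1, -0.41 in batch 2). In batch 2, 6 of the 15 were called lower, where 7.52% of all genes were, and none of them without replicates 7 and 8. Scn2a, the main pore-forming channel of young excitatory neurons, ranged over 45.1 to 105 (median 78.9) CPM in Ctrl and 26.9 to 79.9 (median 66.8) in Both_10Cyp. Its lowest values were 26.9 and 33.3 in replicates 7 and 8, and the other 8 lay within the Ctrl range. The log2 fold change was -0.37 ± 0.14 (adjusted p = 0.0973), or -0.18 without these libraries. Scn3a, the channel most used before birth, had -0.26 ± 0.13, Scn8a -0.23 ± 0.09, Scn1a -0.43 ± 0.19 and Scn9a -0.53 ± 0.21, while Scn10a, known from sensory neurons, had -0.20 ± 0.27.

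Other genes of neuronal signalling that were called were all lower. None of 21 calcium channel genes was called (median -0.25), 2 of 37 potassium channel genes were called lower, and so were 3 of 18 ionotropic glutamate receptor genes, 1 of 21 genes of GABA receptors and chloride transport, 4 of 35 genes of synaptic adhesion and 2 of 29 of vesicle release. Over all genes tested 1.58% were called lower, which corresponds to less than 1 gene in each of these lists, so counts of 1 or 2 are close to it. Gria2, the AMPA receptor subunit that makes the channel impermeable to calcium, ranged over 138 to 187 CPM in Ctrl and 134 to 164 in Both_10Cyp of batch 1. In batch 2 it ranged over 209 to 262 in Ctrl and 90.0 to 184 in Both_10Cyp, with no overlap, and replicates 7 and 8 were lowest at 94.5 and 90.0. The Ctrl libraries themselves thus differed between batches, all 6 of batch 2 lying above all 6 of batch 1. The log2 fold change of Gria2 was -0.43 ± 0.12 (adjusted p = 0.0329), or -0.28 without replicates 7 and 8 (adjusted p = 0.462). Grin1, the obligate NMDA receptor subunit, and Syt1, the calcium sensor of vesicle release, had -0.44 ± 0.14 and -0.36 ± 0.11. Of the adhesion genes, Tenm2 had -0.56 ± 0.16, Nrxn3 -0.42 ± 0.13, Csmd1 -0.51 ± 0.15 and Csmd3 -0.56 ± 0.17. Of 14 muscarinic and nicotinic receptor genes 1 was called lower. This was Chrm4, a muscarinic receptor, which ranged over 1.67 to 3.98 (median 2.46) CPM in Ctrl and 1.01 to 2.5 (median 1.73) in Both_10Cyp (-0.65 ± 0.16, adjusted p = 0.0222). None of these genes was called without replicates 7 and 8, and the medians of the lists were then -0.24 for muscarinic and nicotinic receptors, -0.17 for glutamate receptors and -0.11 for potassium channels. The summed level of oligodendrocyte precursor markers moved with them, at 318 and 338 CPM in those 2 libraries and 418 to 833 (median 653) in Ctrl, and its part in these results was not tested.

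The genes of lowest p among those called lower came from several processes. Fchsd2 (ENSMUSG00000030691; chromosome 7, 101092863 to 101284405), which promotes actin assembly at endocytic sites, ranged over 131 to 163 (median 146) CPM in Ctrl and 119 to 136 (median 125) in Both_10Cyp. Of the exposed libraries, 6 lay below the lowest Ctrl library, and the log2 fold change was -0.19 ± 0.04 (adjusted p = 0.00709), or -0.17 in batch 1 and -0.21 in batch 2. Zmym3, an X-linked partner of histone deacetylase complexes, ranged over 109 to 163 (median 141) and 91.2 to 137 (median 108) CPM (-0.32 ± 0.07, adjusted p = 0.00709). Ezh1, a histone H3 lysine methyltransferase of the Polycomb system, had -0.26 ± 0.06, Rusc1, a neuronal adaptor protein, -0.24 ± 0.05, and Camsap3, which holds microtubule minus ends, -0.24 ± 0.06. Ap3b2, of the neuronal adaptor complex for vesicle sorting, had -0.24 ± 0.06, the AMP deaminase Ampd2 -0.20 ± 0.04 and the choline kinase Chka -0.29 ± 0.07. Tmem135 and the contactin-associated gene Cntnap3 had -0.23 ± 0.05 and -0.51 ± 0.12. Of these 10 genes, 8 had transcripts longer than the median gene tested. All 10 were called with the offsets, and none was called without replicates 7 and 8 (Fchsd2 -0.17, adjusted p = 0.133).

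Genes of lipid synthesis that were called were lower. Of 23 cholesterol synthesis genes, 5 were called lower and none higher, with a median of -0.13 (-0.07 in batch 1, -0.17 in batch 2). Of all genes tested 1.58% were called lower. With the offsets for GC content and length 2 of the 23 were called lower, at a median of -0.14. Dhcr7, which makes cholesterol from its last precursor, ranged over 63.4 to 76.5 (median 70.1) CPM in Ctrl and 50.8 to 68.4 (median 63) in Both_10Cyp (-0.20 ± 0.04, adjusted p = 0.0153), with 6 of 10 exposed libraries below all Ctrl libraries. Hmgcs1, Sqle and Fdft1, at earlier steps of the pathway, had -0.26 ± 0.07, -0.16 ± 0.05 and -0.14 ± 0.04, and Fads2, a fatty acid desaturase, had -0.19 ± 0.04. None of the 23 was called without replicates 7 and 8 (median -0.08).

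Interferon response genes had negative median fold changes in both batches, with or without replicates 7 and 8. Of 30 listed, 27 were tested and none had a positive log2 fold change over both batches, while 3 had one in batch 1. The median was -0.39, -0.44 and -0.51 over both batches, in batch 1 and in batch 2, and -0.47 without replicates 7 and 8. With all libraries 5 were called lower, where 1.58% of all genes tested were, and none without those 2. With the offsets for GC content and length 1 was called lower, at a median of -0.53. These are weakly expressed genes: Usp18, which removes the interferon-induced modifier ISG15, ranged over 0.105 to 2.95 (median 1.08) CPM in Ctrl and 0.0929 to 0.768 (median 0.221) in Both_10Cyp (-2.0 ± 0.59, adjusted p = 0.041). Ctrl replicates 4 and 6 were highest in it at 1.9 and 2.95 CPM, and Ctrl replicates 11 and 12 were at 0.157 and 0.105, as low as the lowest exposed libraries. Rnf213, a large ubiquitin ligase, ranged over 2.58 to 10.8 (median 6.05) and 2.69 to 4.47 (median 3.53) CPM (-0.90 ± 0.25), and Ifit1 and Gbp2 had -2.30 ± 0.67 and -1.46 ± 0.43. Microglial markers, summed, ranged over 162 to 206 (median 171) CPM in Ctrl and 146 to 230.2 (median 184) in Both_10Cyp.

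Stress-related genes showed few calls. Of 18 genes of the glucocorticoid and stress axis, 2 were called lower, where 1.58% of all genes tested were. Avp, the hypothalamic hormone vasopressin, was at 10.2, 6.38 and 7.91 CPM in Ctrl replicates 3, 7 and 10, while the other 9 Ctrl libraries lay at or below 0.775 and Both_10Cyp ranged over 0 to 0.536 (median 0.0367). Those 3 and Ctrl replicate 8 were the only Ctrl libraries above the exposed range, at a log2 fold change of -4.43 ± 1.00 (adjusted p = 0.0144), or -4.19 without Both_10Cyp replicates 7 and 8 (adjusted p = 0.158). Foxb1, a marker of the diencephalon, was high in Ctrl replicates 3 and 10 (7.61 and 6.35 CPM, against at most 0.715 in the other 20 libraries), and the summed diencephalon markers reached 806 CPM in Ctrl replicate 3, against 243 to 444 in the other 21 libraries. The part of neighbouring tissue in the Avp result was not tested. Per1, a clock gene that glucocorticoids also induce, and Nr4a1, an immediate early gene, were called lower (-0.33 ± 0.08 and -0.47 ± 0.13), and neither was without replicates 7 and 8 (adjusted p = 0.303 and 0.389). Vegfa, the vessel growth factor induced by low oxygen, was lower in batch 2 (37.4 to 82.1 CPM in Ctrl, 20.3 to 42.8 in Both_10Cyp, log2 fold change -0.91) and not in batch 1 (24.8 to 38.7 and 23.4 to 36 CPM, 0.05), a difference between batches of -0.96 ± 0.22 that did not pass the test in edgeR (adjusted p = 0.307). Its value over both batches was -0.50 ± 0.13, and without replicates 7 and 8 it was not called (adjusted p = 0.379). Of the 31 tested genes of xenobiotic handling, none was called (median -0.09).

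Markers of glial, vascular and blood cells gave at most 1 call a list. Over all genes tested 2.34% were called higher and 1.58% lower. Sox10, of oligodendrocyte precursors, ranged over 6.27 to 13.6 (median 8.13) CPM in Ctrl and 2.48 to 8.42 (median 5.93) in Both_10Cyp (-0.59 ± 0.18, adjusted p = 0.0469), with the lowest 2 values in replicates 7 and 8. Edn1, of endothelium, and Atp13a5, of pericytes, had -0.87 ± 0.27 and -0.92 ± 0.24. Without replicates 7 and 8 the adjusted p of these 3 genes was 0.491, 0.433 and 0.343. Of 15 choroid plexus, 18 meningeal and 20 microglial genes none was called. The choroid plexus list had a median of 0.97 in batch 1 and 0.05 in batch 2, with summed levels of 263 to 1216 (median 779) CPM in Ctrl and 742 to 1395 (median 1010.1) in Both_10Cyp. Hbb-y was called higher (3.37 ± 0.92, adjusted p = 0.0323) and had 0.39 without replicates 7 and 8 (adjusted p = 0.896), while none of the 13 adult globin and erythroid genes tested was called. Of 38 chromatin and transcription regulators linked to autism, 1 was called lower, Foxp1 (-0.31 ± 0.10), which is on the striatal list as well.

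The remaining lists gave scattered calls. Over all genes tested 2.34% were called higher and 1.58% lower, so single calls in a list are near these shares. Of 28 hypoxia and glycolysis genes, Egln1 (0.14 ± 0.04), an oxygen-sensing hydroxylase, was called higher, and beside Vegfa the neuronal glucose transporter Slc2a3 (-0.35 ± 0.09) and hexokinase Hk1 (-0.26 ± 0.08) were called lower. Of 27 neuropeptide, neurotrophin and granin genes, 3 were called lower and 24 were not called. The 3 were Vgf (-0.64 ± 0.20), Scg3 (-0.13 ± 0.04) and the prohormone convertase Pcsk2 (-0.43 ± 0.13), all parts of dense-core vesicles. Single calls were Hspe1, the mitochondrial co-chaperonin (0.27 ± 0.07, of 26 heat shock genes), the glutathione peroxidase Gpx1 (0.22 ± 0.07, of 30 antioxidant genes), the imprinted gene Mest (0.28 ± 0.08, of 24) and the guidance receptor Ephb1 (-0.17 ± 0.05, of 43). Of 17 striatal genes, the dopamine receptor Drd2 (-0.44 ± 0.14) and Foxp1 were called lower. Of 29 clustered histone genes, Hist1h2ag (0.95 ± 0.26) and Hist1h3h (1.19 ± 0.35) were called higher. No gene was called among the lists of interneurons and ventral forebrain, Cajal-Retzius cells, cortical hem and hippocampus, and early astrocytes. None of these 15 called genes was called without replicates 7 and 8.

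Within batch 1, with 4 against 6 libraries, no gene was called (0% of 14339, and 410 with an unadjusted p under 0.05, whereas DESeq2 called 1). Within batch 2, with 6 against 6, 1564 were higher and 1078 lower (18.4%, made up of 10.9% and 7.52%). The batch 2 count was 1 without replicates 7 and 8, Gm20390. The difference between the batches was itself tested and no gene was called, with 1740 at an unadjusted p under 0.05, while DESeq2 called 0 and limma 4 genes (Vegfa, Sox21, Cyth2 and Cenpl). The median of the genes called higher was 0.14 in batch 1 and 0.39 in batch 2, and of those called lower -0.14 and -0.34.

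Male and female embryos were compared within the same fit. In males, with 6 against 7 libraries, 4 genes were called higher (0.0279%), Rps29 (0.72 ± 0.15), Atp5k (0.74 ± 0.15), mt-Nd4l (0.87 ± 0.18) and Gm20390 (0.67 ± 0.14). In females, with 4 against 5, no gene was called, 2427 had an unadjusted p under 0.05, and Rps29, Atp5k and mt-Nd4l had log2 fold changes of 0.71, 0.61 and 0.73. No gene was called for a difference between the sexes in edgeR, DESeq2 or limma, and 296 had an unadjusted p under 0.05 in edgeR. Among the lowest of these p, Casz1, a zinc finger factor, had 1.03 ± 0.28 (male minus female). The 4 Y-linked genes Ddx3y, Eif2s3y, Kdm5d and Uty summed to at least 85.4 CPM in every library labelled male and to 0 in every one labelled female but Ctrl replicate 7, where they reached 2.04.

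Against the other exposed groups, which involves no Ctrl library, Both_10Cyp differed in few genes. Against both parents at the dose labelled 0.3 (n = 12), mt-Nd4l was higher by 0.71 ± 0.14 (adjusted p = 0.0245), the only call (0.00697%), with 414 genes at an unadjusted p under 0.05. It was not called without replicates 7 and 8. Against the mother alone at dose 10 (n = 8) no gene was called in the edgeR fit of all libraries (1680 with an unadjusted p under 0.05), and Lifr, the receptor of leukaemia inhibitory factor, was among the genes of lowest p (0.52 ± 0.11, adjusted p = 0.0515). That count depended on the setting, with 2469 genes called by limma, 3 by DESeq2 and 243 without replicates 7 and 8 (123 higher, 120 lower). Against the father alone at dose 10 (n = 10) no gene was called (564 with an unadjusted p under 0.05, 3 called by DESeq2).

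Rps29, Snrpf and Pdap1, among the genes that set Both_10Cyp apart from Ctrl most steadily, differed less from those groups than from Ctrl. Their log2 fold changes against Ctrl were 0.71, 0.59 and 0.25. Rps29 differed from Both_0.3Cyp by 0.33 ± 0.11, from Maternal_10Cyp by 0.05 ± 0.12 and from Paternal_10Cyp by 0.24 ± 0.12. For Snrpf the 3 values were 0.18 ± 0.10, -0.09 ± 0.11 and 0.09 ± 0.11, and for Pdap1 0.13 ± 0.04, 0.02 ± 0.05 and 0.13 ± 0.04. None of the 9 passed the test, which does not show that the groups are alike. The ribosomal list had medians of 0.01, -0.09 and -0.01 against the 3 groups, and the mitosis list -0.07, -0.20 and -0.02.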

How the data were processed

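Total RNA of E16 dorsal forebrain had been sequenced, and the authors deposited 1 table of gene-level estimated counts, for which the submitters' processing notes list Salmon 1.10.1, Trim Galore 0.5.0 and the build mm10. How transcripts were summed to genes, the annotation and the strand setting are not given in the sources used here. The values are whole numbers, so no rounding was needed, and columns were matched to samples through the descriptions. The 22 libraries held 17.9 to 34.0 M counts. CPM values were computed here from the counts with TMM scaling.

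Of 14823 genes, 14339 passed filterByExpr and 484 did not. edgeR 4.0.16 (R 4.3.3) fitted all 76 libraries with robust quasi-likelihood models, with group, batch and sex as terms. Tests were 2-sided with Benjamini-Hochberg adjustment over all genes tested, and genes with an adjusted p under 0.05 are called. Log2 fold changes are given with SE. DESeq2 1.42.0, limma 3.58.1 (voom) and sva 3.50.0 served the alternatives, and Python 3.11.15, pandas 2.3.3 and matplotlib 3.10.9 the tables and plots. The fits were tested on simulated counts. Transcript length and GC came from GENCODE M21, promoters from RefSeq.

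The groups compared, the 53 gene lists and the tests were chosen with earlier results of these data known. Genes named are the 15 of lowest p in each direction (mean CPM of at least 1, same sign in both batches, no predicted or clone names), up to 4 of lowest p in each list, the mitochondrial mRNAs, embryonic globins and pore-forming sodium channels, and the 5 of lowest p in each other comparison. Gm20390, Nme1, Nme2 and Cyth2 fall outside this rule and were chosen after their values were seen. Some genes that the rule names are not reported here. No 2 libraries of a group were alike within sampling noise.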

Additional observations from a re-analysis of the deposited data

Results flagged for a closer look

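Within the 10 Both_10Cyp libraries, 3 of the 127 genes examined had 1 library far from the others, judged by its gap to the nearest library as a share of the whole range (Dixon's test at the 95% level). Chance alone gives this for about 1 in 20 groups. The interferon response genes Ifit1 and Usp18 were both highest in replicate 4, at 0.345 CPM (next highest 0.175) and 0.768 CPM (next highest 0.357). Both values lie inside the Ctrl range. Scn10a, a sodium channel gene known from sensory neurons, was at 1.24 CPM in replicate 9, with the next highest library at 0.728. These are weakly expressed genes, for which the gap covers few counts.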

How the results depend on the processing

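The count of 561 genes for Both_10Cyp against Ctrl depended on most settings. It was 1085 with DESeq2, 954 with limma, 55 without the batch term, 109 with 2 surrogate variables, 216 with GC and length offsets, 132 with the globin ratio as a covariate, 204 without the libraries high in diencephalon markers, and 10 when globin-rich libraries (embryonic globin over 3 median absolute deviations above the median of all 76) were dropped, or Both_10Cyp replicates 7 and 8 only (an alternative chosen after seeing the data). Fitted alone, batch 1 gave 0 and batch 2 gave 2155. With only the 2 groups compared in the fit, 482 genes were called, of which 273 were among the 561. Leaving out 1 library gave 27 to 1627. The fit within batch 2 gave 70 with the surrogate variables, 432 with the globin ratio, 1 in each of the fits without those globin-rich libraries, and 187 to 3356 with 1 library left out. Within batch 1, DESeq2 called 1. The difference between batches had 4 calls with limma.

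Replicate numbers did not pair the samples: 1 of 10 pairs correlated above 0.1 (range -0.35 to 0.20), and 0 of 10 correlated best with their own number. With the replicate number as a block 342 genes were called, 1 for the difference between batches and 3 against Both_0.3Cyp.

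Against Both_0.3Cyp, 3 genes were called with DESeq2, 2 each with limma, surrogate variables, the globin ratio and only the groups compared, and 0 without the batch term, with the offsets, without the globin-rich libraries, without replicates 7 and 8 and in batch 1 alone (0 to 2 with 1 library left out). Against Maternal_10Cyp, 2469 were called with limma, 1118 without the globin-rich libraries, 243 without replicates 7 and 8, 4 with surrogate variables, 3 each with DESeq2, its size factors, no filter, no sex term and the offsets, and 2 each with thinned counts, without the diencephalon-rich libraries and in batch 2 alone (0 to 3 with 1 left out). Against Paternal_10Cyp, 3 were called with DESeq2 and 2 each with limma and in batch 2 alone (0 to 1 with 1 left out). The causes were not tested.

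Of 109 called genes followed, 107 kept the call with DESeq2 size factors, 95 with limma, 49 with the offsets and 9 without replicates 7 and 8. Signs reversed in batch 1 alone for Hbb-y (-0.076), Egln1 (-0.015), Vegfa (0.054), mt-Nd2 (-0.0090), mt-Nd4 (-0.049), mt-Nd5 (-0.042), mt-Nd6 (-0.042), mt-Cytb (-0.034) and the sex difference of Ddx3y (-0.0016). With the offsets they reversed for mt-Nd1 (-0.034), mt-Nd2 (-0.036), mt-Nd6 (-0.097) and mt-Cytb (-0.041), and with the block for Scn10a (0.036), mt-Nd2 (-0.0018) and mt-Nd5 (-0.0067). Hba-x was reversed with the globin ratio (-0.070) and mt-Co1 in batch 2 alone (0.056). With 1 library left out, mt-Co1 ran from -0.032 to 0.014 and the sex difference of Eif2s3y from -0.087 to 4.84, the reversals being without Both_10Cyp replicate 2 and without Ctrl replicate 7. Depth limits most the genes near or below 1 CPM, such as Usp18, Ifit1 and Hbb-y.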
